A study of Mus musculus with 4 samples.

Results

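The dystrophin complex is the protein assembly that ties the contractile cytoskeleton of a muscle fibre to the basement membrane around it. The genes described here are Dmd (dystrophin), its paralogue Utrn (utrophin), Dag1 (dystroglycan), Sgca, Sgcb and Sgcd (α-, β- and δ-sarcoglycan), Dtna (α-dystrobrevin) and Aqp4, the water channel aquaporin-4 that the complex anchors. They were found by their symbols, and all 8 were present among the 23282 gene rows of each library. The set was chosen by earlier results on the measured values of these same libraries, so the levels and differences of its genes are a description and no test is attached to them.

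In a muscle fibre, dystrophin binds actin filaments at its amino end and β-dystroglycan at the sarcolemma near its carboxyl end. Dystroglycan, the product of Dag1, is cleaved into a membrane-spanning β-chain and an extracellular α-chain that carries the sugar chain by which laminin is held. The sarcoglycans and sarcospan surround dystroglycan in the membrane, while dystrobrevin and the syntrophins sit on the cytoplasmic side and recruit signalling proteins and channels. The complex also holds aquaporin-4 at the sarcolemma, where the channel is most abundant in fast-twitch fibres. Loss of dystrophin causes Duchenne muscular dystrophy, loss of a sarcoglycan causes a limb-girdle muscular dystrophy, and utrophin, which in adult muscle is concentrated at the neuromuscular junction, can take over part of the role of dystrophin.

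Expression was measured by 3′ mRNA sequencing (QuantSeq) of the gastrocnemius, a calf muscle made mainly of fast fibres in mice, from CDF1 mice, which were male according to the methods of the study. The design crossed high-intensity treadmill exercise (E), run every other day, with a tumor (T) of CT26 cells, a murine colorectal cancer line, given through the tail vein. The healthy groups were normal control (neither, E−T−) and normal exercise (E+T−) and the tumor-bearing groups were cancer control (without exercise, E−T+) and cancer exercise (both, E+T+). Each had 1 library, so no difference has a replicate check and the intervals given are 95% counting intervals. The labels name 10 mice per group while the study describes a representative mouse from each, so whether a library holds RNA of 1 animal is not settled, and the labelled age, postnatal day 28, is that at which the mice were bought and not that at which the muscle was taken. The cells were injected into the blood and no vehicle injection of the healthy groups is described in the sources used here. According to the study, the gastrocnemius of the cancer exercise mouse showed no tumor growth.

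The libraries held from 10647444 reads in cancer control to 13226052 in normal exercise, with reads for 14427 to 14830 genes. The 10 muscle fibre markers all had reads in every library and together took 7.78% of the reads of cancer control, 8.18% of cancer exercise, 10.8% of normal exercise and 11.8% of normal control. This sum is weighted to the most abundant markers. From normal control to cancer control Pvalb went from 231410 to 12643 reads and Acta1 from 326584 to 125922. The median log2 difference of the 10 markers there was −0.29, with 8 below 0 and 2 above. Cancer control stood apart in that all 10 keratinocyte markers had reads there, against 4 or 5 of 10 in the other libraries, with 0.00796% of reads in all against 0.00104% to 0.00232%. A level is given below as the normalized read count, that is, reads after scaling all libraries to a common size. A gene was called higher or lower when the libraries compared differed by 2-fold or more and 1 or both of them had a normalized read count of 4 or more. Because reads come from the 3′ end of a transcript, counts do not scale with gene length, and levels are compared between libraries and not between genes.

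The start regions of 4 transcripts are printed here because Dmd has starts of different kinds and because Sgca and Sgcb, partners in the sarcoglycan subcomplex, differed in how much they varied. All are from RefSeq on GRCm38.p6, run 5′ to 3′ on the strand of the gene, and span 250 bases before to 50 after the annotated start. Capitals mark an E-box (CANNTG, the site of MyoD-type factors), a GC box (GGGCGG or its reverse complement) or a CArG box, the site of serum response factor. The upstream Dmd start lies at chrX:82948620-82948919 (plus strand), the inner Dmd start at chrX:85048045-85048344 (plus strand), the Sgca start at chr11:94976278-94976577 (minus strand) and the Sgcb start at chr5:73647688-73647987 (minus strand).
Dmd, upstream start: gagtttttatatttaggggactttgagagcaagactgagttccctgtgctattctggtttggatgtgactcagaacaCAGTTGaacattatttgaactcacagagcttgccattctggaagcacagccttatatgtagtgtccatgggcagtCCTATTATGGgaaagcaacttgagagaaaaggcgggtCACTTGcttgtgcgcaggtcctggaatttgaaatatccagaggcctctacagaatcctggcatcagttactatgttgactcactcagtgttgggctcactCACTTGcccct
Dmd, inner start: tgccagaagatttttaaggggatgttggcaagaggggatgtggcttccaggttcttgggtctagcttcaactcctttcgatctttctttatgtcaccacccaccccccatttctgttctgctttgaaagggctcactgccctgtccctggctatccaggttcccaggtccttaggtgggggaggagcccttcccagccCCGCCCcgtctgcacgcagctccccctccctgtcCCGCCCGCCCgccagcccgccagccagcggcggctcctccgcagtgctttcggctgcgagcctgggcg
Sgca: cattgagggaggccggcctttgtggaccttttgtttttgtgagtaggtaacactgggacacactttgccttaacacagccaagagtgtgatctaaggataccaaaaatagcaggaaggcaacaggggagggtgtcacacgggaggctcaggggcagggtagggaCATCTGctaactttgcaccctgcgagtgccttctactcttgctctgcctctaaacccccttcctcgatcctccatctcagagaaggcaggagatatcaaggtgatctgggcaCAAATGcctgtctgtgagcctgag
Sgcb: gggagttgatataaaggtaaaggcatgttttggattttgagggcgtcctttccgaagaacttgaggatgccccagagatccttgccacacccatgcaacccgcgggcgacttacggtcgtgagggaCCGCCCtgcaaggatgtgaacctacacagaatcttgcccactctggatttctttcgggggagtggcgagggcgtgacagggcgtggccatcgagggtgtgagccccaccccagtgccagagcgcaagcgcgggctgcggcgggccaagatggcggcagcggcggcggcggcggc
The upstream Dmd region held 3 E-boxes and 1 CArG box, with the letters CCTATTATGG beginning 98 bases before the start, and had 2 CpG dinucleotides at a GC content of 45.7%. The inner region held no E-box and 3 GC boxes, of which the last pair overlap, with 14 CpG dinucleotides at 62.7% GC. Sgca had 2 E-boxes and 4 CpG dinucleotides, whereas Sgcb had no E-box, 1 GC box and 24 CpG dinucleotides. An E-box was present in 72.3% of 32851 RefSeq mouse promoters of this length, a GC box in 35.7% and a CArG box in 1.6%, both strands being searched. These are matches of letters and not measured binding sites.

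Dmd spans chrX:82948870-85206141 on the plus strand (mm10, GENCODE vM21) and has 3 protein-coding transcripts with 2 start sites. Counts were deposited per gene and not per transcript, so full-length dystrophin and shorter forms are summed in the values of Dmd. The gene Tsga8 lies on the opposite strand inside Dmd and had 0 reads in every library. No other annotated gene lay over the last 500 bases at the farthest transcript end of any of the 8 genes. Other ends were not checked, and for Aqp4 only 1 of 9 protein-coding transcripts ended at the farthest end.

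Dmd was highest in the muscle of tumor-bearing mice. Its normalized read count was 743 without and 751 with exercise in healthy mice, and 1519 without and 1134 with exercise in tumor-bearing mice. At the reported scaling the healthy libraries did not differ beyond counting error, and both libraries with a tumor lay above them. In cancer control Dmd was 2.04-fold higher than in normal control (log2 difference 1.03, interval 0.90 to 1.16), an interval that reaches below the 2-fold threshold. The tumor difference was 0.59 (0.46 to 0.72) between the exercised libraries, under 2-fold. Exercise gave a log2 difference of 0.02 (−0.13 to 0.16) in healthy mice and of −0.42 (−0.54 to −0.31) in tumor-bearing mice. Under total count scaling the value in healthy mice was 0.18, just beyond that counting interval. In a bulk muscle sample, fewer cells of a type and less RNA per cell cannot be told apart.

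Utrn (chr10:12382188-12869365, minus strand) followed another order. Its normalized read count was 617 without and 712 with exercise in healthy mice, and 489 without and 449 with exercise in tumor-bearing mice. The libraries with a tumor were the lowest, and those 2 did not differ beyond counting error. No difference reached 2-fold. The tumor difference was −0.33 (−0.51 to −0.15) without exercise and −0.66 (−0.84 to −0.49) with exercise, and the exercise difference was 0.21 (0.05 to 0.36) in healthy and −0.12 (−0.32 to 0.07) in tumor-bearing mice.

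A ratio of 2 genes within a library does not depend on how the libraries were scaled. Dmd reads per Utrn read were 1.21 (1.08 to 1.35) without and 1.06 (0.962 to 1.16) with exercise in healthy mice, and 3.11 (2.79 to 3.46) without and 2.52 (2.25 to 2.83) with exercise in the presence of a tumor. The intervals of the libraries with a tumor lay wholly above those of the healthy libraries. Dmd reads per Dag1 read were 0.305 (0.280 to 0.332) without and 0.338 (0.314 to 0.365) with exercise in healthy mice, and 0.430 (0.404 to 0.458) without and 0.379 (0.352 to 0.407) with exercise in the presence of a tumor. Here the intervals of normal exercise and cancer exercise overlapped.

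**Figure D1:**
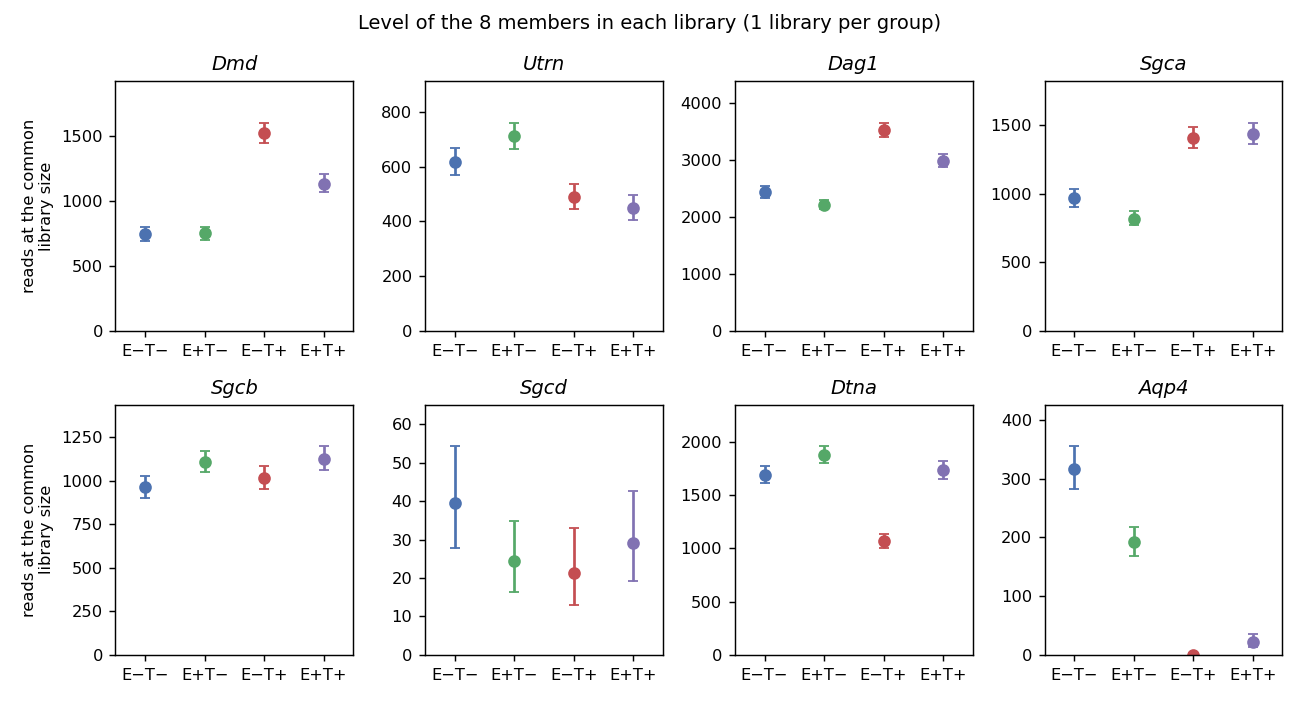
Level of each of the 8 genes in the 4 libraries, on the y axis as reads at the common library size, with 95% Poisson intervals and 1 point per library. Dmd is highest in E−T+ at 1519, whereas Aqp4 has 0 reads there and 298 in E−T−.

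Dag1 (chr9:108204634-108263958, minus strand) encodes the receptor at the centre of the complex. Its normalized read count was 2436 without and 2220 with exercise in healthy mice, and 3533 without and 2993 with exercise in tumor-bearing mice, so the tumor-bearing libraries were again the highest. No difference reached 2-fold. The tumor difference was 0.54 (0.46 to 0.61) without exercise and 0.43 (0.35 to 0.51) with exercise. Exercise gave −0.24 (−0.31 to −0.17) in tumor-bearing mice and −0.13 (−0.21 to −0.05) in healthy mice, the latter becoming 0.03 when libraries were scaled by total count.

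The sarcoglycans stabilise dystroglycan in the membrane. Sgca (chr11:94962791-94976327, minus strand) had a normalized read count of 967 without and 819 with exercise in healthy mice, and 1405 without and 1437 with exercise in tumor-bearing mice. The libraries with a tumor were above the healthy ones and did not differ from each other beyond counting error. The tumor difference was 0.54 (0.42 to 0.66) without exercise and 0.81 (0.69 to 0.93) with exercise. Exercise gave −0.24 (−0.37 to −0.11) in healthy mice and 0.03 (−0.08 to 0.14) in tumor-bearing mice, −0.03 under total count scaling. The gene Hils1, on the opposite strand inside Sgca, had 0 reads in all libraries.

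Sgcb (chr5:73632749-73647790, minus strand) varied least of the 8 genes. Its normalized read count was 964 without and 1109 with exercise in healthy mice, and 1017 without and 1127 with exercise in tumor-bearing mice, a range of 1.17-fold. Each exercised library was slightly above its unexercised counterpart. The exercise difference was 0.20 (0.08 to 0.33) in healthy and 0.15 (0.02 to 0.28) in tumor-bearing mice, and the tumor difference was 0.08 (−0.06 to 0.21) without exercise and 0.02 (−0.09 to 0.14) with it, −0.13 under total count scaling. Sgca reads per Sgcb read were 1.0 (0.914 to 1.10) without and 0.739 (0.681 to 0.802) with exercise in healthy mice, and 1.38 (1.27 to 1.5) without and 1.27 (1.17 to 1.38) with exercise in the presence of a tumor. The ratio was therefore higher in both tumor-bearing libraries than in both healthy ones. The start regions of this pair are printed above, and their letters were not tested against these values. Start regions not printed paired letters and values otherwise. Those of Dag1 had 30 and 47 CpG dinucleotides, and its tumor difference without exercise was 0.54, as for Sgca. The region of Utrn had 7 E-boxes and 2 CpG dinucleotides (tumor difference −0.33), and that of Sgcd 2 E-boxes and 12 CpG dinucleotides (−0.85).

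Sgcd (chr11:46896253-47988969, minus strand) had the fewest reads of the 8 genes in the healthy libraries. It had 37 reads without and 30 with exercise in healthy mice, and 20 without and 27 with exercise in tumor-bearing mice. At this depth only the tumor difference without exercise, −0.85 (−1.74 to −0.06), had an interval that left out 0. The others were −0.67 (−1.44 to 0.04) for exercise in healthy mice, 0.43 (−0.44 to 1.36) for exercise in tumor-bearing mice and 0.26 (−0.54 to 1.07) for the tumor in exercised mice, the last becoming −0.12 when reads were thinned to the smallest library.

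**Figure D2:**
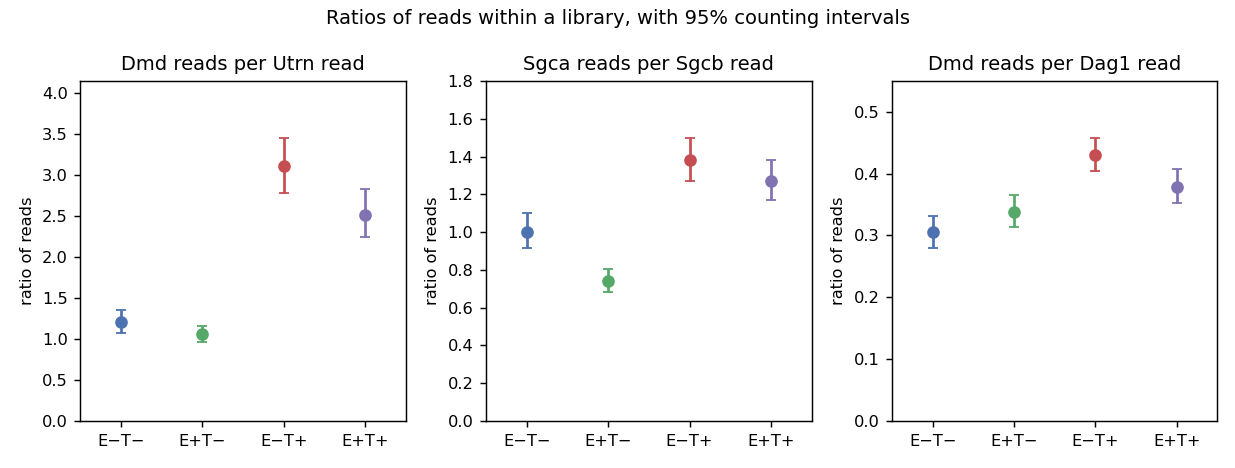
Ratio of reads of 2 genes within each library (y axis, reads per read) with 95% counting intervals. Dmd reads per Utrn read stand at 3.11 and 2.52 in the libraries with a tumor and at 1.21 and 1.06 in those without.

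Dtna (chr18:23415135-23659715, plus strand) encodes the dystrobrevin that binds the carboxyl end of dystrophin and the syntrophins. It had a normalized read count of 1690 without and 1876 with exercise in healthy mice, and 1064 without and 1734 with exercise in tumor-bearing mice. Cancer control was low and the other libraries lay close together. Dtna was under the 2-fold threshold throughout, with a tumor difference of −0.67 (−0.78 to −0.55) without exercise and an exercise difference of 0.70 (0.59 to 0.82) in tumor-bearing mice. In healthy mice exercise gave 0.15 (0.06 to 0.24), and the tumor gave −0.11 (−0.21 to −0.02) between the exercised libraries. An annotated antisense gene lies inside Dtna, as one does inside Aqp4, and whether reads were counted by strand is not given in the sources used here.

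Aqp4 (chr18:15389496-15410982, minus strand) covered by far the widest range of the 8 genes. It had 298 reads without and 237 with exercise in healthy mice, and 0 without and 21 with exercise in tumor-bearing mice, at normalized read counts of 317, 192, 0.0512 and 22.8. The value for cancer control is a residue of the normalization, since no read was counted there. A count of 0 allows a share of up to 0.0000282% of the reads of that library. The healthy libraries were high, cancer exercise low and cancer control without reads.

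Without exercise, Aqp4 was at least 98.7-fold lower with the tumor than in normal control when cancer control is set at the floor of 3 reads. That floor leaves out the counting error of the 298 reads, and the 95% counting interval, which holds it, ended at a smaller log2 difference of −6.32. Cancer exercise was 8.11-fold lower than normal exercise (log2 difference −3.02, interval −3.80 to −2.43). Against the floor of 3 reads in cancer control it was at least 7.08-fold higher, and the counting interval began at a smaller log2 difference of 2.40. Exercise in healthy mice gave −0.72 (−0.97 to −0.47), under 2-fold.

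**Figure D3:**
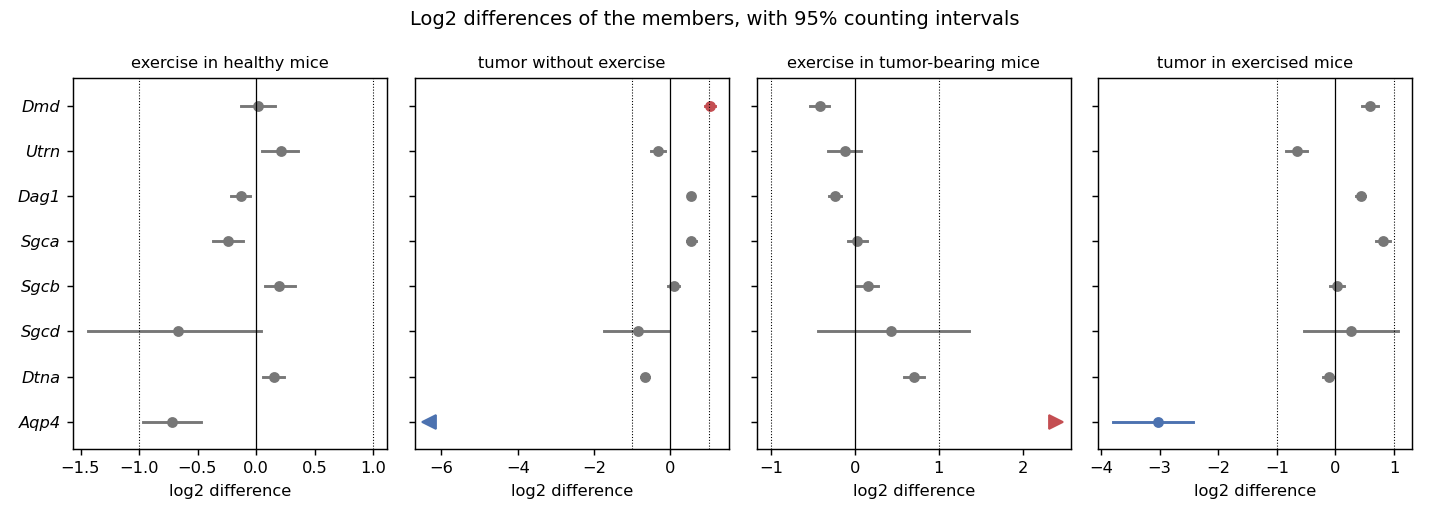
Log2 difference (x axis) of each of the 8 genes in the 4 comparisons with 95% counting intervals, dotted lines at 2-fold, triangles at the near end of the interval where a library had 0 reads, and colour for genes called higher (red) or lower (blue). In tumor without exercise Dmd lies at 1.03 and the triangle of Aqp4 at −6.32.

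Counted over the set, exercise in healthy mice called 0 of the 8 genes in either direction, beside 9.44% of 14518 genes tested called higher and 12.1% called lower. The tumor without exercise called 1 higher (Dmd) and 1 lower (Aqp4), beside 20.9% and 24.2% of 14818 genes. Exercise in tumor-bearing mice called 1 higher (Aqp4) and 0 lower, beside 15.6% and 15.1% of 14491 genes. The tumor in exercised mice called 0 higher and 1 lower (Aqp4), beside 13.9% and 16.3% of 14470 genes. All 8 genes met the minimum count in each comparison. The median log2 difference of the set was −0.06, −0.13, 0.09 and 0.14 in these comparisons, against −0.010, −0.043, 0.005 and −0.030 over all genes tested. Since the genes were picked with such differences known, nothing is read from these counts. The same shares over all genes apply to the 2-fold counts of the lists below, where not all of them are repeated. Those lists were also chosen with earlier results known. The comparisons share libraries in pairs, so their values are not independent of each other.

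Other genes of the complex were taken from a list of 12, of which 8 met the minimum count in all comparisons. Sgcz, Sntb1, Sntg1 and Sntg2 had 0 or 1 read in each library. Of the 8 tested, the tumor comparison without exercise called Nos1 and Dtnb higher and Sspn, Cav3 and Sgce lower, beside 20.9% and 24.2% of all genes tested. Exercise called 0 in healthy mice, and in tumor-bearing mice Sspn and Cav3 higher and Dtnb lower. The tumor in exercised mice called Nos1 and Dtnb higher and Sspn lower. The median of the list was −0.04, 0.27, 0.35 and −0.06 in the order of comparisons used above.

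Sspn encodes sarcospan, the small membrane protein bound to the sarcoglycans. Its normalized read count was 1330 without and 1356 with exercise in healthy mice, and 183 without and 586 with exercise in tumor-bearing mice. At the reported scaling the healthy libraries did not differ beyond counting error, and both libraries with a tumor were lower. The tumor difference was −2.85 (−3.10 to −2.63) without exercise and −1.21 (−1.35 to −1.07) with exercise, and exercise gave 1.67 (1.43 to 1.93) in tumor-bearing mice. Sspn thus had the same order of libraries at the bottom as Aqp4, with cancer control the lowest and cancer exercise next. Cav3 and Sgce, described below, had the order of Aqp4 over all 4 libraries.

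Cav3, the muscle caveolin, binds dystroglycan and lies in the caveolae of the sarcolemma. It had a normalized read count of 826 without and 722 with exercise in healthy mice, and 329 without and 670 with exercise in tumor-bearing mice, so cancer control alone was low. The tumor without exercise gave −1.33 (−1.52 to −1.14), and exercise in tumor-bearing mice gave 1.03 (0.83 to 1.23), an interval that reaches below 2-fold. Sgce, which encodes ε-sarcoglycan and is expressed outside muscle as well, had 269 without and 160 with exercise in healthy mice, and 87.8 without and 118 with exercise in tumor-bearing mice. Its tumor difference was −1.60 (−1.99 to −1.25) without exercise.

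Nos1 encodes neuronal nitric oxide synthase, which the complex holds at the sarcolemma. Its normalized read count was 355 without and 479 with exercise in healthy mice, and 891 without and 1310 with exercise in tumor-bearing mice. The libraries with a tumor were both above the healthy ones, with a tumor difference of 1.32 (1.14 to 1.51) without and 1.45 (1.31 to 1.59) with exercise.

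Dtnb, the β-dystrobrevin found mainly outside muscle, had 4 reads without and 5 with exercise in healthy mice, and 38 without and 16 with exercise in tumor-bearing mice. Its tumor difference without exercise was 2.97, with a wide interval of 1.78 to 5.21 that reflects these few reads. Sntb2, a β-syntrophin, stayed between normalized read counts of 121 and 168 and was called in no comparison.

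**Figure D4:**
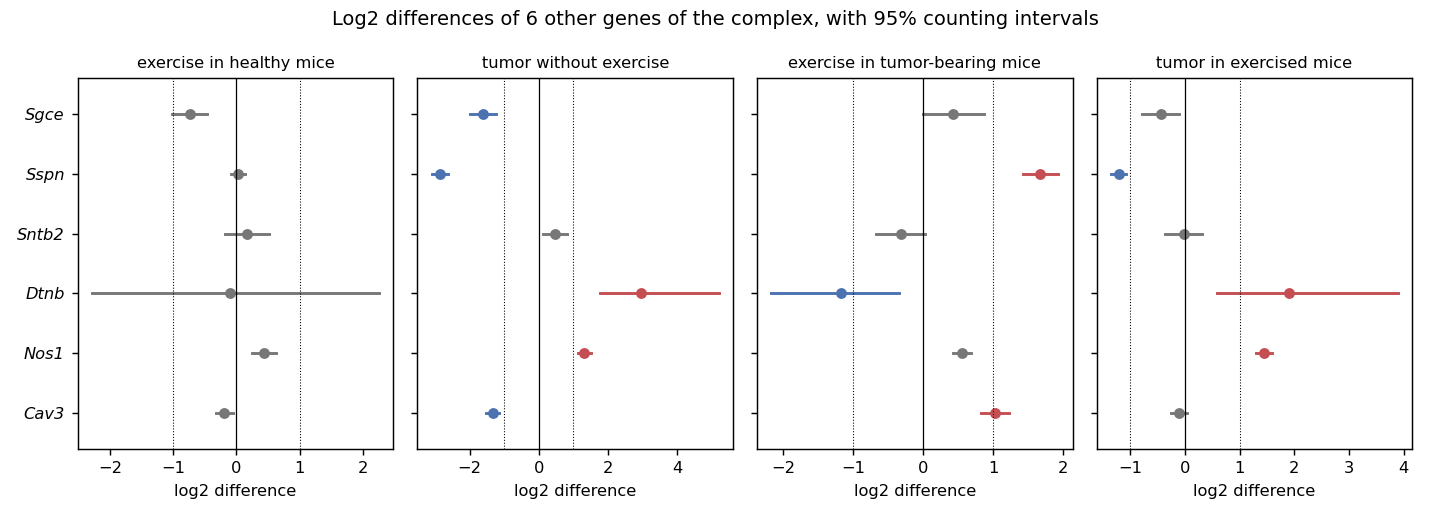
Log2 difference (x axis) of 6 other genes of the complex in the 4 comparisons with 95% counting intervals, dotted lines at 2-fold, and colour for genes called higher (red) or lower (blue). Sspn lies at −2.85 and Dtnb at 2.97 in tumor without exercise.

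Of 15 genes for matrix proteins that dystroglycan and its neighbours bind in the basement membrane, 0 were called higher and 6 lower in the tumor comparison without exercise (median −0.74), and 0 higher and 2 lower in exercised mice (−0.46). The shares of all genes tested were 20.9% and 24.2% without exercise and 13.9% and 16.3% in exercised mice. Exercise called 1 higher and 2 lower in healthy mice (−0.45) and 2 higher and 0 lower in tumor-bearing mice (0.28). Col6a3, a chain of the collagen that links the basement membrane to the interstitium, had a normalized read count of 2185 without and 1043 with exercise in healthy mice, and 104 without and 524 with exercise in tumor-bearing mice. The chain Col6a2 (tumor difference without exercise −3.21) and Nid1, the laminin-binding nidogen (−2.23), were the next by size. Of 10 fibroblast markers, which include collagen genes of other types, 8 were called lower in the tumor comparison without exercise and 6 in exercised mice, and their part in these differences was not tested.

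The enzymes that build the laminin-binding sugar chain of dystroglycan had 0 of 17 called higher and 6 lower with the tumor without exercise (median −0.52), beside 20.9% and 24.2% of all genes tested. With exercise in tumor-bearing mice, 3 were called higher and 0 lower (0.38), beside 15.6% and 15.1% of all genes tested. The tumor in exercised mice called 0 higher and 1 lower (−0.20), and exercise in healthy mice called 0 (−0.26). Pomgnt2, which adds a sugar at an early step of the chain, had a normalized read count of 290 without and 217 with exercise in healthy mice, and 12.9 without and 184 with exercise in tumor-bearing mice. Cancer control alone was low for this gene. Pomk, the kinase that primes the chain, had 64.8 in normal control and 12.9 in cancer control.

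Integrin and membrane repair genes, which serve the other laminin receptor of muscle and the resealing of the sarcolemma, moved in both directions. Of 14 genes, 2 were called higher and 1 lower in the tumor comparison without exercise (median 0.17) and 3 higher and 0 lower in exercised mice (0.50). Over all genes tested the shares were 20.9% and 24.2% without exercise and 13.9% and 16.3% in exercised mice. Exercise called 0 higher and 1 lower in healthy mice (−0.15) and 1 higher and 0 lower in tumor-bearing mice (0.29). Trim72, a membrane repair protein, had a normalized read count of 1164 without and 981 with exercise in healthy mice, and 3014 without and 3155 with exercise in tumor-bearing mice. Murc, a muscle cavin of the caveolar coat, was also higher with the tumor, at 910 in normal control and 2034 in cancer control. Capn3, a calpain whose loss causes a limb-girdle dystrophy, was lower, at 1145 and 276 in these libraries.

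Among 14 cytoskeletal partners of the complex, 5 were called higher and 2 lower with the tumor without exercise (median 0.22), and 5 higher and 1 lower in exercised mice (0.42, over 13 tested). All genes tested gave 20.9% and 24.2% without exercise and 13.9% and 16.3% in exercised mice. Exercise called 1 higher and 1 lower in healthy mice (0.01) and 3 higher and 2 lower in tumor-bearing mice (−0.01). Flnc, the muscle filamin that binds sarcoglycans, had a normalized read count of 607 without and 837 with exercise in healthy mice, and 9647 without and 7101 with exercise in tumor-bearing mice, with both libraries with a tumor far above the healthy ones. Synm, which encodes the intermediate filament protein synemin that binds dystrophin and dystrobrevin, showed the opposite, at 8129, 7444, 1126 and 2150 in the same order. Krt18, a keratin, had 2 reads without and 16 with exercise in healthy mice, and 25 without and 9 with exercise in tumor-bearing mice. Keratinocyte markers took 0.00796% of the reads of cancer control, but 0.00215% in normal exercise against 0.00232% in normal control. Their part in the differences of Krt18 was not tested.

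Of 10 other aquaporins, 3 to 5 met the minimum count in a comparison. The tumor without exercise called 0 of 4 higher and 2 lower (median −1.36). With genes of 3 reads or fewer in a library set at the floor of 3 reads, the median was −0.41. Exercise called 1 of 5 higher and 2 lower in healthy mice (0.24) and 1 of 3 higher and 0 lower in tumor-bearing mice (0.69). The tumor in exercised mice called 1 of 4 higher and 1 lower (−0.34, or −0.38 with genes of so few reads at the floor). Aqp7, a glycerol channel of fat and muscle capillaries, had 75 reads without and 116 with exercise in healthy mice, and 2 without and 21 with exercise in tumor-bearing mice. Aqp1, the water channel of capillary endothelium, was not called between cancer control and normal control, at normalized read counts of 8797 and 9396. Aqp11 differed by 0.51 between these libraries.

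Genes were also ordered by how closely their levels over the 4 libraries, centred on their own mean, followed those of Dmd or Aqp4. Nearest to Dmd were Avpi1, Samd11 and Sf3a2, whose log2 values departed from its course by at most 0.03 in any library, then Abce1 (0.04) and Rnf169 (0.05). Nearest to Aqp4 were Mylk4 (0.43), Pnck (0.48), Cited4 (0.57), Colgalt2 (0.71) and Pnpla3 (0.85). In cancer control Aqp4, Pnck, Cited4 and Pnpla3 had 0 reads and Colgalt2 had 1. These distances and their order therefore depend on the pseudocount and on the small value the normalization gives to genes without reads. Mylk4, a kinase of the myosin light chain kinase family, had a normalized read count of 7814 without and 8174 with exercise in healthy mice, and 35.4 without and 785 with exercise in tumor-bearing mice. With 4 libraries many genes can share a course, and these are given as a description.

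Fibre type markers also differed between these libraries. In the tumor comparison without exercise, which called Dmd and Aqp4, 8 of 10 slow fibre markers were called higher and 0 lower (median 1.82), and 1 of 10 fast fibre markers was called higher and 4 lower (−0.13). The fast fibre calcium buffer Pvalb had a normalized read count of 246119 without and 152769 with exercise in healthy mice, and 13540 without and 24440 with exercise in tumor-bearing mice. In exercised mice the tumor called 1 slow fibre marker higher and 0 lower (−0.00) and 2 fast fibre markers higher and 2 lower (−0.01), beside the lower Aqp4 there. Exercise in tumor-bearing mice called 0 slow fibre markers higher and 3 lower (−0.95) and 0 fast fibre markers in either direction (0.05), beside the higher Aqp4. Summed slow fibre markers took 0.0869% of the reads without and 0.165% with exercise in healthy mice and 0.278% and 0.134% in tumor-bearing mice, and fast fibre markers 13.3%, 12.0%, 8.13% and 8.27% in this order. The fast fibre markers were split in the tumor comparison without exercise, with 4 above 0 and 6 below. Pvalb (−4.18), Mylpf (−2.03) and Tnnc2 (−1.85) were the lowest, whereas Myh1 (1.30) and Myh2 (0.96) were the highest. In the tumor comparison without exercise 8 of 10 fibroblast markers were called lower, 7 of 10 keratinocyte markers higher, and 3 of 8 white blood cell markers higher and 1 lower. Fibroblast markers together took 1.09% of the reads without and 0.673% with exercise in healthy mice, and 0.400% and 0.432% in tumor-bearing mice. The part of fibre type or of other cells in the differences of Dmd, Aqp4 and the rest of the complex was not tested.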

How the data were processed

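Libraries were prepared with the QuantSeq 3′ kit from total RNA of the gastrocnemius, 1 per group, and groups were taken from the sample titles. According to the methods and the submitters' processing notes, Bowtie2 was used by the authors for alignment to mm10, bedtools coverage for counting reads on genes, and edgeR for quantile normalization. The annotation, strand and handling of duplicates are not given in the sources used here. Each library was deposited as 23282 gene rows of log2 values, with 1 added to the normalized read count before the logarithm. The normalization gives genes without reads a small value in some libraries, so reads were rebuilt. A scaling factor per library and a dispersion of 0.339 were fitted to the steps of the low values, after which 100% of the values came from whole reads within 0.0006, and the factors lay within 0.00845% of TMM (trimmed mean of M values) factors. The rebuild was tested on simulated data. The largest counts are known only to 2 or 3 neighbouring values, as for Dag1.

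Differences are those of the deposited log2 values, on the log2(value + 1) scale, which understates changes of low genes. Calls needed 2-fold and a normalized read count of 4 in either library of a comparison. The study names the same thresholds but does not say how the read count was applied to the libraries compared. For exercise in healthy and in tumor-bearing mice it reports fewer genes than were called here. The calls and shares given here are therefore not those of the study. Intervals are 95% Clopper-Pearson (differences, ratios) or Poisson (levels) and, as reads carry no molecular identifiers, cover counting error only; the floor was 3 reads, from 0.0000227% to 0.0000282% of a library. No test was run, since each group has 1 library. The 8 genes and all gene lists were chosen with earlier results of these data known. Named were these genes, the rest of the core complex, the 3 genes of each other list with the largest difference between cancer control and normal control at a normalized read count of 16 or more in either, and the 5 genes most like Dmd and Aqp4 with a mean of 16 or more. Marker lists covered muscle, fast and slow fibre, neuromuscular junction, endothelial, fibroblast, Schwann cell, keratinocyte and white blood cell. Values of a few of these genes are not reported here. Of all list genes, 1 (Ly6g) was not found. No symbol used here occurred in more than 1 row. Alternatives were scaling by median-of-ratios, TMM or total count, a pseudocount of 0.25 or 4, minimums of 0 and 16, thresholds of 1.5-fold and 4-fold, and thinning to the smallest library. Coordinates are from GENCODE vM21 and promoters from RefSeq, GRCm38.p6. Python 3.11.15, numpy 2.4.6, scipy 1.17.1, pandas 2.3.3 and matplotlib 3.10.9 were used.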

Additional observations from a re-analysis of the deposited data

Results flagged for a closer look

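The difference of exercise between tumor-bearing and healthy mice had opposite signs for Aqp4, at 4.50 on the log2 scale in tumor-bearing mice and −0.72 in healthy mice, a gap of 5.22. The value in tumor-bearing mice rests on 0 reads in cancer control and on the pseudocount, and ranged from 2.73 to 6.26 over the alternatives. Cav3 also had opposite signs, at 1.03 in tumor-bearing and −0.19 in healthy mice, a gap of 1.22. It was not alone in the complex. Sspn stood at 1.67 in tumor-bearing and 0.03 in healthy mice, a wider gap without a change of sign. Sgce (0.42 and −0.74) and Sgcd (0.43 and −0.67) had opposite signs with each value under 2-fold. With 1 library per group, no gap between the contrasts was tested.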

How the results depend on the processing

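Of 40 counts of called genes under alternatives, 35 stayed within 1.5 times the reported count. At a threshold of 1.5-fold the 8 genes gave 2 calls for exercise in healthy mice (both lower, from 0), 4 for the tumor without exercise (1 higher and 3 lower, from 2), 2 for exercise in tumor-bearing mice (both higher, from 1) and 4 for the tumor in exercised mice (2 higher and 2 lower, from 1). At 4-fold, 1 call remained for the tumor without exercise (lower). The shares of all genes called at 1.5-fold and 4-fold are not given here, so these counts are not read as high or low. Of 192 log2 differences under alternatives, 0 reversed a call and 12 moved beyond the counting interval, 11 of them under total count scaling, which shifts the median of all genes by 0.159 for exercise in healthy mice and by −0.154 for the tumor in exercised mice. Relative to that shift Dag1, 0.03 for exercise in healthy mice under total count, still lay below the median. Dmd in the tumor comparison without exercise ranged from 1.03 to 1.10. Aqp4 there ranged from −10.04 to −6.31, since the fitted size of a gene without reads depends on the pseudocount, and in exercised mice from −3.18 to −2.87. Depth limits Sgcd and Dtnb, whose intervals span more than 2-fold. No paired analysis was possible because each group has 1 library and no result comes from a test. Leaving out a replicate was likewise not possible.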

Other observations

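Markers of the neuromuscular junction, where utrophin and part of the complex gather, were called 4 higher and 0 lower of 10 with exercise in healthy mice (median 0.69). The tumor without exercise called 3 higher and 3 lower of 11 (0.35), exercise in tumor-bearing mice 3 higher and 2 lower of 12 (0.66), and the tumor in exercised mice 2 higher and 4 lower of 11 (−0.08). Musk, the receptor kinase that organises the junction, had 10 reads without and 80 with exercise in healthy mice, and 74 without and 50 with exercise in tumor-bearing mice. Ache, the acetylcholinesterase of the synaptic cleft, had 39, 50, 0 and 10 reads in that order, and Chrne, the adult receptor subunit, had 59, 95, 11 and 22. Both were lowest in cancer control, whereas Musk was lowest in normal control.

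The remaining marker lists are given by their called counts in the order exercise in healthy mice, tumor without exercise, exercise in tumor-bearing mice and tumor in exercised mice. Muscle fibre markers were called 0, 0, 0 and 0 higher and 1, 3, 0 and 1 lower of 10 (medians −0.36, −0.29, 0.25 and −0.01), led in the tumor comparison without exercise by Pvalb (−4.18), Mb (−2.0) and Acta1 (−1.36). Fast fibre markers in healthy mice were called in neither direction with exercise (−0.40), and after Pvalb the largest tumor differences without exercise were those of Mylpf (−2.03) and Tnnc2 (−1.85). Slow fibre markers in healthy mice were called 4 higher and 0 lower with exercise (0.76), and Tnni1 (2.50), Tnnc1 (2.37) and Myh7 (2.11) had the largest tumor differences without exercise. Fibroblast markers were called 0, 0, 5 and 0 higher and 6, 8, 0 and 6 lower of 10 (medians −1.05, −2.96, 0.93 and −1.06), led by Col1a1 (−6.28), Col3a1 (−5.30) and Col1a2 (−4.52). Endothelial markers were called 0, 2, 1 and 1 higher and 0, 0, 0 and 1 lower of 10 (medians 0.37, −0.13, 0.17 and −0.06), led by Cldn5 (1.18), Vwf (1.02) and Kdr (−0.97).

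Schwann cell markers were called 0, 2, 1 and 0 higher and 1, 3, 7 and 3 lower of 10 (medians −0.62, 0.17, −1.28 and −0.80). Their largest tumor differences without exercise were those of Mag, which went from 22 reads to 0, Ncmap (1.79) and S100b (−1.75). Keratinocyte markers were called 1 of 5, 7 of 10, 0 of 10 and 2 of 5 higher and 2, 0, 9 and 3 lower (medians −0.95, 3.58, −3.57 and −1.21). With genes of 3 reads or fewer in a library set at the floor of 3 reads, these medians were −0.81, 1.83, −2.46 and −0.32. Flg2 had 148 reads in cancer control and 0 elsewhere, Lor had 199 there against 0 to 4, and Dsp had 133 against 0 to 3. White blood cell markers were called 1, 3, 1 and 5 higher and 1, 1, 2 and 0 lower of 8 (medians 0.16, 0.19, 0.10 and 1.32, the last 0.93 with genes of so few reads at the floor), led by S100a8 (6.83), Cd68 (3.45) and S100a9 (3.12). In the tumor comparison without exercise 4 of the 8 lay above 0 and 4 below. Itgam was at 0.46, Ptprc and Adgre1 at −0.08, Csf1r at −0.69 and the lowest marker at −2.62.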
